A study of Homo sapiens with 6 samples.

Results

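The human mitochondrial genome is a small circular molecule that encodes 13 subunits of the respiratory chain, 2 ribosomal RNAs and 22 transfer RNAs. These 37 genes were taken from the table of counts as all rows whose symbol starts with MT-, out of 61155 symbols in all. Bulk RNA sequencing compared 3 libraries of wild-type (WT) H7 cells, an established human embryonic stem cell (hESC) line, with 3 libraries of S6K1-/- hESCs. S6K1, encoded by RPS6KB1, is a kinase downstream of mTOR, and the knockout cells come from 1 clone made with Cas9 and guide RNAs against RPS6KB1, so that genotype and clone cannot be told apart. Both groups were grown without feeders on Matrigel in TeSR-E8 medium and harvested undifferentiated, although the labels also name week 5 and call the second group a knockdown. The libraries are named WT and S6K1-/- replicates 1, 2 and 3, and nothing says whether those of a group came from separate cultures, so p-values measure only the spread between these libraries, which may be technical.

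Mitochondrial DNA is transcribed from both strands into long precursors that cover many genes. The tRNAs that separate most of the mRNAs and rRNAs are cut out, and most of the mRNAs released in this way receive short poly(A) tails from the polymerase MTPAP, MT-ND6 being the known exception. The promoter of the heavy strand gives the 2 rRNAs, 12 of the 13 mRNAs and 14 tRNAs, and that of the light strand gives MT-ND6 and 8 tRNAs. The products are core subunits of complexes I, III, IV and V, which pass electrons to oxygen and make ATP, and the other subunits come from nuclear genes. Embryonic stem cells rely strongly on glycolysis, and the respiratory chain is used more as they differentiate.

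All 37 genes were found on the 16569 bases of the mitochondrial chromosome of GRCh38 in the GENCODE 44 annotation, without introns. Their arrangement bears on how reads can be counted, since several genes share bases. MT-ATP8 (chrM:8366-8572) and MT-ATP6 (chrM:8527-9207) share 46 bases in different reading frames on the plus strand, and MT-ND4L (chrM:10470-10766) and MT-ND4 (chrM:10760-12137) share 7. The shared bases are given in capitals, with 12 bases on either side, from the reference and not from these cells.
MT-ATP8 and MT-ATP6, chrM:8515-8584: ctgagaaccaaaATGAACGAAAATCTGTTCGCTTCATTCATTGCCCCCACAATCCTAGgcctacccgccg
MT-ND4L and MT-ND4, chrM:10748-10778: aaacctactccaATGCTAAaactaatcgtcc

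In 6 of the 13 mRNA genes the annotated length is not a multiple of 3, so that the DNA ends within the stop codon. The poly(A) tail supplies the missing bases. The last 24 bases of these 6 genes are shown to make this visible, and the capitals mark the part of the stop codon that the DNA encodes.
MT-ND1, chrM:4239-4262: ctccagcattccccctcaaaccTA
MT-ND2, chrM:5488-5511: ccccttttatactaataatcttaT
MT-CO3, chrM:9967-9990: tctccatctattgatgagggtctT
MT-ND3, chrM:10381-10404: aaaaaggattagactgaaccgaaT
MT-ND4, chrM:12114-12137: acatcattaccgggttttcctctT
MT-CYB, chrM:15864-15887: aaaacaaaatactcaaatgggccT

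Library totals ranged from 21896698 to 24473013 counts. The shallowest library was S6K1-/- replicate 3. RPS6KB1 had 831, 791 and 777 counts in WT and 464, 464 and 438 in S6K1-/- hESCs, so that the target was lower in every library labelled as knockout. The 7 pluripotency markers examined summed to 4441 to 4602 CPM in WT and 4372 to 4450 CPM in S6K1-/- hESCs. CPM are counts scaled to a common library size with edgeR's TMM factors. DPPA4, L1TD1 and TDGF1 were below WT in every S6K1-/- library, as were 16.7% of all genes tested. POU5F1, NANOG, SOX2 and LIN28A had overlapping groups. The 5 neuroectoderm and retina markers summed to between 4.97 and 5.68 CPM in WT and between 7.88 and 9.10 in S6K1-/- hESCs. The 3 endoderm markers summed to 5.04 to 7.77 CPM in WT and 3.26 to 3.38 in S6K1-/- hESCs, nearly all of it FOXA2. The 4 markers of amnion and trophoblast summed to 5.51 to 7.16 and 3.58 to 3.97 CPM, mostly KRT7, and the 4 mesoderm markers to 1.85 to 2.42 and 2.09 to 2.67. The part of these markers in the results below was not tested.

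The 37 genes took 8.78%, 8.78% and 8.63% of all counts in WT replicates 1, 2 and 3. The S6K1-/- libraries gave 9.51%, 9.74% and 8.54% in the same order. Thus S6K1-/- replicates 1 and 2 lay above all WT libraries and replicate 3 lay below them, and the groups overlapped. The mean share was 8.73% ± 0.0841 in WT and 9.26% ± 0.634 in S6K1-/- hESCs (SD, n = 3 each), and the spread within S6K1-/- hESCs was larger than the difference of 0.532 percentage points. The difference was 0.295 points without S6K1-/- replicate 2 and 0.892 points without S6K1-/- replicate 3. The exact binomial interval of each share, which covers counting error only, was narrow at this depth, from 8.53% to 8.56% in S6K1-/- replicate 3 at a level of 95%. The 13 mRNA genes took 6.98% to 7.11% of a WT library and 7.62%, 7.89% and 6.77% of the S6K1-/- libraries. The 2 rRNA genes took 1.466% to 1.501% of a WT library and 1.60% to 1.69% of an S6K1-/- library, and the groups did not overlap. The tRNA genes took from 0.172% to 0.200% of a library, with overlapping groups.

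**Figure D1:**
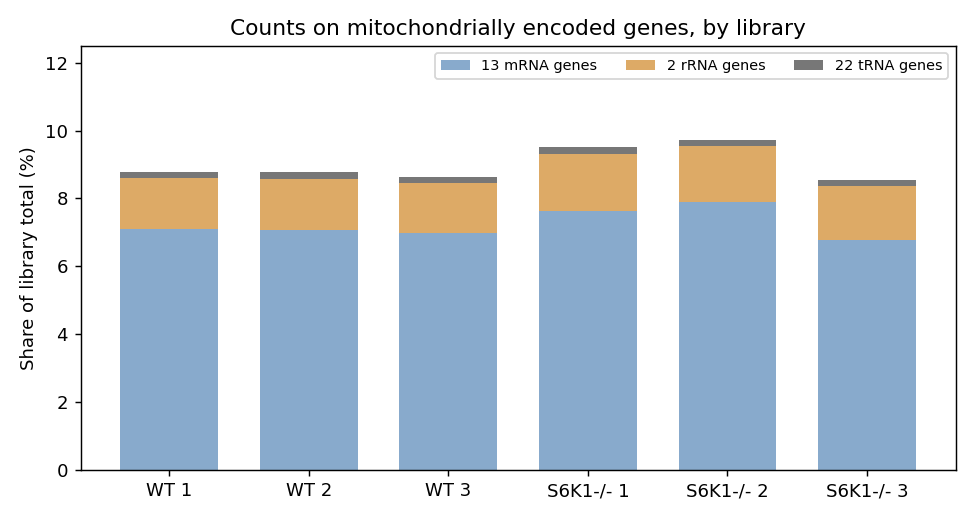
Share of each library's total counts, in percent, on mitochondrial mRNA, rRNA and tRNA genes, as stacked bars for the 6 libraries. The bars of S6K1-/- replicates 1 and 2 are the highest, and that of S6K1-/- replicate 3 is the lowest at 8.54%.

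For the comparison of genotypes, 21 of the 37 genes had enough counts for edgeR (filterByExpr), namely all 13 mRNA genes, both rRNA genes and 6 tRNA genes. At an adjusted p under 0.001 in edgeR's quasi-likelihood test, the study's threshold, none of the 21 was higher or lower in S6K1-/- hESCs. Of all 19521 genes tested, 3.96% passed, and 1.42% of all 19521 were higher. At an adjusted p under 0.05, 3 of the 21 were higher in edgeR (MT-RNR2, MT-ND2 and MT-ND1), where 5.47% of all genes were higher. These 3 calls did not stay past 0.05 in every fit that left out a library, and such fits have fewer libraries to test with. MT-ND1 and MT-ND2 were past 0.05 in edgeR without S6K1-/- replicate 3 but not without any of the other 5 libraries, with adjusted p up to 0.205 and 0.196. MT-RNR2 was not past 0.05 in edgeR without WT replicate 3 (adjusted p = 0.0853), S6K1-/- replicate 1 (0.0902) or S6K1-/- replicate 2 (0.0680). Its log2 fold change stayed between 0.17 and 0.22 in the fits that left out a library. At an unadjusted p under 0.05, 7 of the 21 were higher and none was lower, where 26.4% of all genes passed that level and 11.8% were higher. DESeq2's Wald test put 1 of the 25 members for which it gave an adjusted p past 0.001, MT-RNR2, against 3.39% of all genes. At an adjusted p under 0.05 that test had 4 members, MT-RNR2, MT-ND2, MT-CO3 and MT-CYB, but not MT-ND1 (0.210). The share of all genes past 0.05 in DESeq2 was not computed. The log2 fold change of the 13 mRNA genes lay between -0.04 and 0.25, with 12 of 13 above 0 and a median of 0.07, beside a median of -0.0024 over all genes tested. That median of 0.07 became 0.027 without S6K1-/- replicate 2 and 0.145 without S6K1-/- replicate 3. In CPM scaled by TMM, 4 of the 21 genes had groups that did not overlap, all with S6K1-/- above WT, where 30.7% of all genes had groups apart and 14% had S6K1-/- above.

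**Figure D2:**
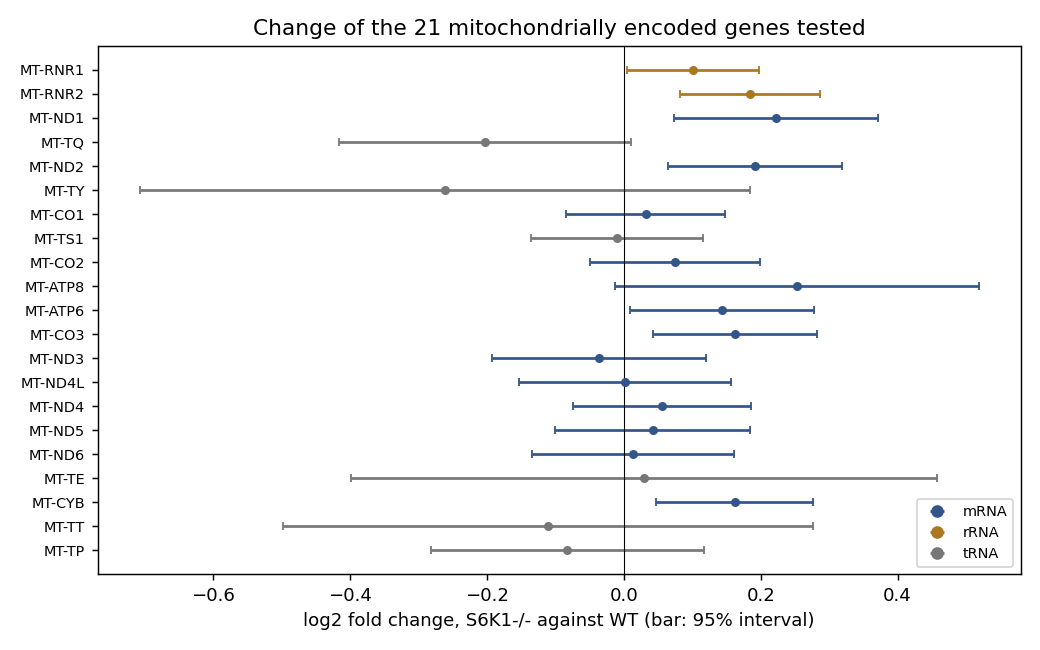
Log2 fold change of S6K1-/- against WT hESCs for the 21 genes tested, in the order of the mitochondrial genome, with bars for the 95% interval. The rRNA and mRNA genes lie between -0.04 and 0.25, and the tRNA genes MT-TQ and MT-TY have the lowest values.

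The rRNAs form the core of the mitochondrial ribosome, MT-RNR1 (chrM:648-1601) that of the small subunit and MT-RNR2 (chrM:1671-3229) that of the large one. MT-RNR2 had 13147, 13338 and 13032 CPM in WT and 15269, 15173 and 14462 CPM in S6K1-/- hESCs. Every S6K1-/- library was above every WT library, by more than the spread within either group. The log2 fold change was 0.18 (standard error, SE, 0.048), or 13.6% with a 95% interval from 5.82% to 22.02%, and edgeR gave an adjusted p (Benjamini-Hochberg) of 0.0182. It was thus not past 0.001 in this test, whereas DESeq2's Wald test gave 1.10e-06 and a log2 fold change of 0.19. MT-RNR1 had 1574, 1602 and 1575 CPM in WT and 1794, 1639 and 1663 CPM in S6K1-/- hESCs, again without overlap. Its log2 fold change was 0.10 (SE 0.045, edgeR adjusted p = 0.168), and 0.060 without S6K1-/- replicate 1. The ratio of MT-RNR2 to MT-RNR1 counts was 8.35, 8.33 and 8.28 in WT and 8.51, 9.26 and 8.70 in S6K1-/- hESCs, so that its groups did not overlap either.
rRNA carries only short tails and is captured in part by poly(A) selection, so these values describe what the selection kept. Relative to the 13 mRNA genes, the rRNA counts stood at 0.209, 0.212 and 0.210 in WT and at 0.221, 0.212 and 0.237 in S6K1-/- hESCs. The highest ratio belonged to S6K1-/- replicate 3, and the groups overlapped. In the edgeR fit scaled to the 13 mRNA genes, MT-RNR2 had a log2 fold change of 0.09 (SE 0.097, adjusted p = 0.626) and MT-RNR1 one of 0.01 (adjusted p = 0.959). The SE of MT-RNR2 was 0.048 without this scaling, so the scaled fit could miss a shift of this size.

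Complex I, which takes electrons from NADH, has 7 subunits from mitochondrial genes, with log2 fold changes from -0.04 to 0.22. Whether these differed from each other was not tested beyond the scaled fit described further on. MT-ND1 (chrM:3307-4262), the first mRNA after the rRNAs, had 3245, 3239 and 3022 CPM in WT and 3895, 4006 and 3188 CPM in S6K1-/- hESCs. The first 2 S6K1-/- libraries were above all WT libraries and the third was among them. Its log2 fold change was 0.22 (SE 0.070, edgeR adjusted p = 0.0477), but DESeq2's Wald test gave an adjusted p of 0.210. Leaving out a library moved the log2 fold change between 0.16 (edgeR adjusted p = 0.205, without S6K1-/- replicate 2) and 0.33 (edgeR adjusted p = 4.43e-04, without S6K1-/- replicate 3). MT-ND2 (chrM:4470-5511) had 3662, 3759 and 3563 CPM in WT and 4401, 4403 and 3738 CPM in S6K1-/- hESCs, again with S6K1-/- replicates 1 and 2 above all WT libraries and replicate 3 among them. Its log2 fold change was 0.19 (SE 0.060, edgeR adjusted p = 0.0454, DESeq2 adjusted p = 0.00389).
The other complex I genes lie further along the genome, and their values differed from WT by less than the spread within S6K1-/- hESCs. MT-ND4 had 7645 ± 38.6 CPM in WT and 7947 ± 758 CPM in S6K1-/- hESCs (SD, n = 3 each), which gave a log2 fold change of 0.06 (interval -0.07 to 0.19). It was 0.0064 without S6K1-/- replicate 2 and 0.14 without S6K1-/- replicate 3 (edgeR adjusted p = 0.968 and 0.0491). MT-ND4L, read from the same mRNA, had a log2 fold change of 0.0019 (interval -0.15 to 0.16). MT-ND3 had -0.04 and MT-ND5 (chrM:12337-14148) had 0.04. In these genes S6K1-/- replicate 3 was lower than every WT library and S6K1-/- replicate 2 was higher than every WT library.
MT-ND6 (chrM:14149-14673, minus strand) is the one mRNA of the light strand, lies antisense to the heavy-strand precursor between MT-ND5 and MT-CYB, and is known to lack a poly(A) tail, so that poly(A) selection limits what its counts measure. It had 1158, 1348 and 1195 CPM in WT and 1258, 1365 and 1111 CPM in S6K1-/- hESCs, with overlapping groups and a log2 fold change of 0.01 (SE 0.069, interval -0.13 to 0.16). The strand setting of the counting is not given in the sources used here, so reads of MT-ND6 and reads from the opposite strand cannot be told apart.

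**Figure D3:**
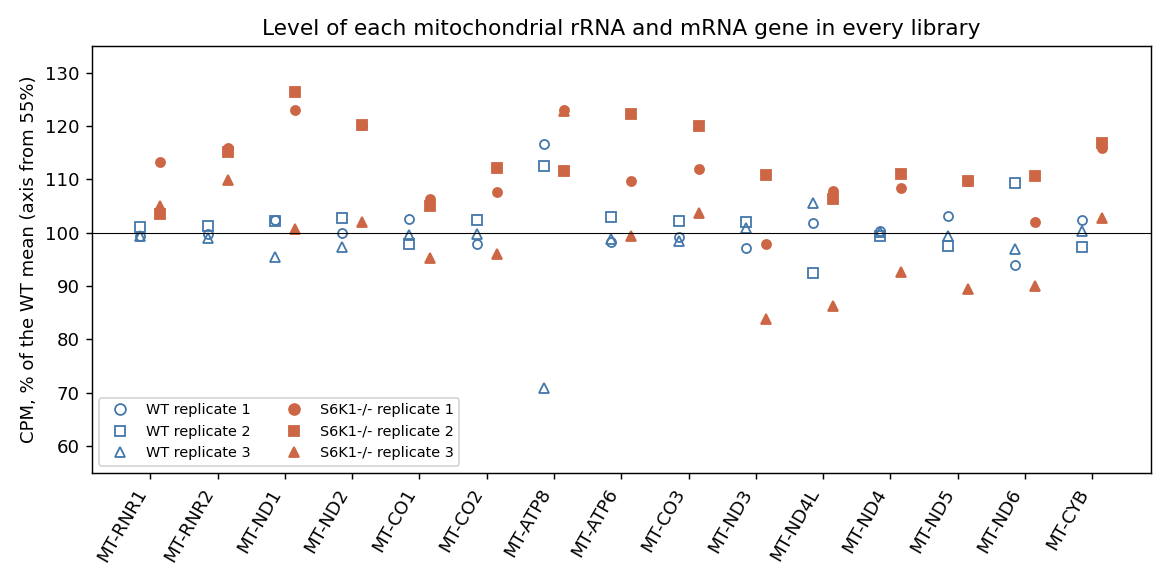
CPM of each mitochondrial rRNA and mRNA gene in every library, in percent of the gene's WT mean, along the mitochondrial genome (the axis starts at 55%). The filled triangles of S6K1-/- replicate 3 lie below the other S6K1-/- libraries in 12 of the 13 mRNA genes, and both rRNA genes have all S6K1-/- libraries above WT.

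MT-CYB (chrM:14747-15887) encodes cytochrome b, the mitochondrially encoded subunit of complex III. It had 4163, 3963 and 4084 CPM in WT and 4719, 4757 and 4183 CPM in S6K1-/- hESCs, without overlap. The log2 fold change was 0.16 (SE 0.054, edgeR adjusted p = 0.0598, DESeq2 adjusted p = 0.00602).
Complex IV, cytochrome c oxidase, draws its catalytic core from MT-CO1, MT-CO2 and MT-CO3. MT-CO1 (chrM:5904-7445) had more counts than any other gene in each of the 6 libraries, with 17234, 16460 and 16715 CPM in WT and 17875, 17650 and 16002 CPM in S6K1-/- hESCs. The groups overlapped, and the log2 fold change was 0.03 (SE 0.055, interval -0.08 to 0.15). MT-CO2 (chrM:7586-8269) had a log2 fold change of 0.07 (SE 0.058, interval -0.05 to 0.20), also with overlap. Without S6K1-/- replicate 2 the log2 fold change of MT-CO2 was 0.027, and without S6K1-/- replicate 3 it was 0.145, while that of MT-CO1 ranged from 0.0019 to 0.089 when a library was left out. MT-CO3 (chrM:9207-9990) had 10539, 10865 and 10469 CPM in WT and 11897, 12752 and 11011 CPM in S6K1-/- hESCs, which did not overlap. Its log2 fold change was 0.16 (SE 0.056, edgeR adjusted p = 0.0714, DESeq2 adjusted p = 0.00545).
Complex V, the ATP synthase, has MT-ATP6 and MT-ATP8 in its membrane part, and both are read from 1 mRNA. MT-ATP6 had 4694, 4921 and 4718 CPM in WT and 5237, 5843 and 4751 CPM in S6K1-/- hESCs. The lowest S6K1-/- library lay among the WT libraries, and the log2 fold change was 0.14 (SE 0.063, edgeR adjusted p = 0.161). It was 0.06 without S6K1-/- replicate 2 and 0.22 without S6K1-/- replicate 3 (edgeR adjusted p = 0.553 and 0.0135). MT-ATP8 had 444, 428 and 270 CPM in WT and 468, 425 and 468 CPM in S6K1-/- hESCs. WT replicate 3 stood apart at 61.9% of the mean of the other WT libraries, although MT-ATP6 from the same mRNA was not low in that library. The log2 fold change of MT-ATP8 was 0.25 (SE 0.125) over all libraries and 0.06 without WT replicate 3, with an adjusted p of 0.215 and 0.535 from edgeR.

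To separate a shift of all mRNAs from a shift of some, each gene was expressed as a share of the summed counts of the 13 mRNA genes. The shares of MT-ND1, MT-ND2, MT-CO3 and MT-CYB were higher in every S6K1-/- library than in every WT library, that of MT-ND4 was lower, and the other 8 overlapped. In CPM, 30.7% of all genes tested had groups that did not overlap, and 14% had S6K1-/- above, but no such share was computed on the present scale. MT-ND2 took 5.19%, 5.33% and 5.13% of the mRNA counts in WT and 5.71%, 5.54% and 5.49% in S6K1-/- hESCs. MT-ND1 took 4.60%, 4.59% and 4.35% in WT and 5.05%, 5.04% and 4.68% in S6K1-/- hESCs. MT-ND4 took 10.9%, 10.8% and 11.0% in WT and 10.7%, 10.7% and 10.4% in S6K1-/- hESCs. On this scale S6K1-/- replicate 3 was the lowest S6K1-/- library for these 3 genes and the highest for MT-CO3 (16.2%) and MT-CYB (6.14%). When the edgeR fit was scaled to these 13 genes, the log2 fold changes were 0.13 for MT-ND1 and 0.10 for MT-ND2, with adjusted p of 0.481 and 0.616. None of the 21 genes was past 0.001. The SE of these 2 genes was 0.096 in the scaled fit, against 0.070 and 0.060 unscaled, so that fit could miss shifts of this size. MT-TY had the smallest p of the 21 in that fit, with a log2 fold change of -0.36 (SE 0.101, edgeR adjusted p = 0.00575), but in the fit over all genes it turned to 0.19 without WT replicate 1, which had 1171 counts against 550 and 548 in the other WT libraries.

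Levels were compared between genes per kilobase of annotated length, as CPM per kilobase. MT-CO2 was highest with 16503 ± 375 CPM per kilobase in WT and 17378 ± 1371 in S6K1-/- hESCs (SD, n = 3 each). MT-CO3 followed with 13552 ± 270 and 15161 ± 1110, and MT-CO1 with 10897 ± 256 and 11138 ± 663. The ranges of MT-CO2 and MT-CO3 over the 6 libraries overlapped, and those of MT-CO3 and MT-CO1 did not. The 3 subunit genes of complex IV thus stood above all the others.
MT-RNR2 and MT-ATP6 came next with overlapping ranges, and MT-ND4 followed them with 5548 ± 28.0 CPM per kilobase in WT. MT-ND4L, MT-ND3, MT-CYB, MT-ND2 and MT-ND1 formed a series between 3315 and 4257 CPM per kilobase in the WT mean, in which each overlapped the next. Below them lay MT-ND6, MT-ND5 and MT-ATP8, and MT-RNR1 had the lowest mean, overlapping MT-ATP8, with 1660 ± 16.7 in WT and 1781 ± 87.95 in S6K1-/- hESCs. MT-RNR2 and MT-RNR1 come from the same precursor but differed in level, with 8449 ± 98.9 against 1660 ± 16.7 CPM per kilobase in WT. MT-ND4L and MT-ND4, or MT-ATP8 and MT-ATP6, share an mRNA, and in each pair the short gene had fewer counts per kilobase. How reads over shared bases were counted is not given in the sources used here, and its part in these levels was not tested.

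The 22 tRNA genes are 59 to 75 bases long, and mature tRNAs have no poly(A) tail, so that counts on these genes do not measure mature tRNAs. The counts were split by strand. Of the 14 tRNA genes in the same direction as most mRNAs, 9 had 0 counts in all 6 libraries, which allows a level of up to 0.137 CPM in the shallowest library and 0.123 CPM in the deepest. All 8 tRNA genes of the opposite strand had counts, and they took 99.7% of the counts on tRNA genes. MT-TS1 alone, which encodes a serine tRNA, took 95.5%. Of the 16 members that were not tested, 7 were tRNA genes with counts, at most 20 in a library.
The 5 tested tRNA genes of the light strand are given in their own direction, which is that of their tRNA and opposite to the neighbouring mRNAs.
MT-TQ, chrM:4329-4400, minus strand: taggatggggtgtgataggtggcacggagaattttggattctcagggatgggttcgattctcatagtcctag
MT-TY, chrM:5826-5891, minus strand: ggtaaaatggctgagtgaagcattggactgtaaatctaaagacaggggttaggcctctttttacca
MT-TS1, chrM:7446-7514, minus strand: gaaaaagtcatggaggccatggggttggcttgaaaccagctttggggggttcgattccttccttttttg
MT-TE, chrM:14674-14742, minus strand: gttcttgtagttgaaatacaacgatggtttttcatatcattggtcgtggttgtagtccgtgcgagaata
MT-TP, chrM:15956-16023, minus strand: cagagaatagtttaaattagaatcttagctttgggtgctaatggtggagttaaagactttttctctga

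MT-TS1 begins at the base after MT-CO1 on the opposite strand, and its counts may hold reads of either strand. It had 41263, 46157 and 42306 counts in WT and 45851, 41881 and 36037 in S6K1-/- hESCs. Relative to MT-CO1 this was 9.83%, 11.4% and 10.9% in WT and 10.9%, 9.91% and 10.3% in S6K1-/- hESCs, so that the groups overlapped on both scales. Its log2 fold change was -0.01 (SE 0.059, interval -0.14 to 0.12).
MT-TY had 1171, 550 and 548 counts in WT and 609, 700 and 506 in S6K1-/- hESCs. WT replicate 1 stood at 209% of the mean of the other WT libraries in CPM, and the other WT libraries lay among the S6K1-/- libraries or close to them. The log2 fold change of MT-TY was -0.26 (SE 0.209, edgeR adjusted p = 0.473) with all libraries and 0.19 (adjusted p = 0.188) without WT replicate 1. MT-TQ had 223, 224 and 206 counts in WT and 183, 214 and 148 in S6K1-/- hESCs, which gave a log2 fold change of -0.20 (SE 0.0999, edgeR adjusted p = 0.214). It was -0.31 without S6K1-/- replicate 2 and -0.10 without S6K1-/- replicate 3. MT-TP (log2 fold change -0.08), MT-TT (-0.11) and MT-TE (0.03) had overlapping groups. The value of MT-TP rested on single libraries, with -0.25 without S6K1-/- replicate 2 (edgeR adjusted p = 0.0164) -0.0018 without S6K1-/- replicate 1 and -0.0036 without S6K1-/- replicate 3.

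**Figure D4:**
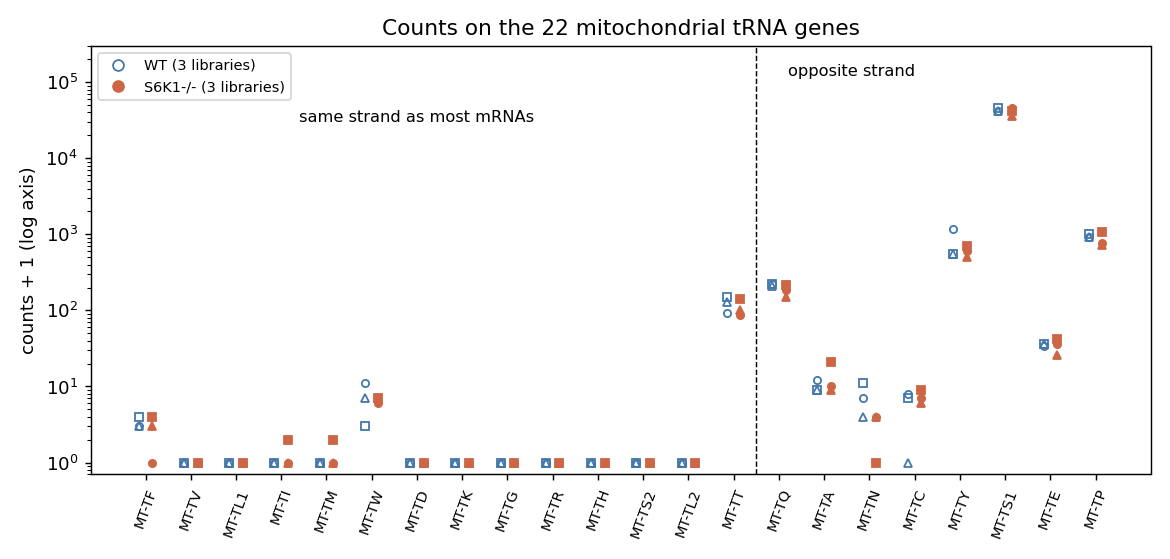
Counts plus 1 on the 22 tRNA genes in each library, on a log axis, with the genes of each strand on either side of the dashed line. On the strand of most mRNAs only MT-TT exceeds 20 counts, while MT-TS1 on the other strand has at least 36037 in every library.

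The nuclear genome holds pseudogenes copied from mitochondrial DNA, and reads may be placed on either. The table lists 407 symbols of this kind, of which 101 had a count, and 3 of them took 98.6% of these counts. All 3 lie on chromosome 1. MTATP6P1 (chr1:633696-634376) differs from MT-ATP6 at 10 of 681 bases, an identity of 98.5%. The stretch of 90 bases with the most differences is shown, with its 4 differences in capitals. Other stretches of that length match at least as closely.
MT-ATP6, chrM:8629-8718: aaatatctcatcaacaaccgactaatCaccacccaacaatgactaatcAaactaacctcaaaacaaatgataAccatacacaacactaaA
MTATP6P1, chr1:633798-633887: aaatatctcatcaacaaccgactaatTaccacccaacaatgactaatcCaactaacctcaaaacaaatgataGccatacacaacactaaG

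MTATP6P1 had 27868, 29015 and 26452 counts in WT and 30399, 37567 and 25686 in S6K1-/- hESCs. This was 24.4%, 23.99% and 24.1% of the MT-ATP6 count in WT and 24.7%, 26.9% and 24.8% in S6K1-/- hESCs, so that the copy moved with the gene, and S6K1-/- lay slightly above WT in this ratio without overlap. MTND2P28, at 98.4% identity, held 3.62% to 3.94% of the MT-ND2 count in a library, and MTCO1P12, at 98.6% identity, held 0.369% to 0.674% of that of MT-CO1. With the counts of 7 copies on chromosome 1 added to their genes, the log2 fold change of MT-ATP6 was 0.16 in place of 0.14 and that of MT-ND2 stayed at 0.19. None of the nuclear copies tested, 11 in all, was past 0.001 in edgeR's test, where 3.96% of all genes passed, with 4 higher and 1 lower at an unadjusted p under 0.05, where 26.4% of all genes passed. DESeq2 called 0 of the 17 copies for which it gave an adjusted p, against 3.39% of all genes.

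The mitochondrial subunits assemble with subunits from nuclear genes, so 83 nuclear-encoded genes of complexes I to V were set beside them. They took from 0.691% to 0.753% of a library, with overlapping groups. Of the 79 tested, none was past 0.001 in edgeR's or DESeq2's test, where 3.96% and 3.39% of all genes passed, and 6 were higher and 5 lower at an unadjusted p under 0.05 in edgeR, a level that 26.4% of all genes passed. Their median log2 fold change was -0.0012, with 39 above 0 and 40 below, whereas that of the 13 mitochondrial mRNA genes was 0.07. The counts of the 13 mRNA genes were 10.00, 9.40 and 9.75 times those of the nuclear-encoded genes in WT and 11.0, 11.1 and 9.06 times in S6K1-/- hESCs. S6K1-/- replicates 1 and 2 had the highest ratios and S6K1-/- replicate 3 the lowest, so that the groups overlapped.
The 5 members with the smallest p were COX6B2, ATP5MF, NDUFA9, COX7C and SDHC. COX6B2, a form of a complex IV subunit best known from testis, had 33, 39 and 45 counts in WT and 23, 20 and 16 in S6K1-/- hESCs, which gave a log2 fold change of -0.93 (SE 0.223, edgeR adjusted p = 0.0114). ATP5MF, a subunit of the ATP synthase, had 25.6, 29.1 and 28.8 CPM in WT and 31.3, 43.1 and 31.6 CPM in S6K1-/- hESCs. The groups did not overlap, S6K1-/- replicate 2 stood apart from the other libraries, and the log2 fold change was 0.35 (SE 0.101, edgeR adjusted p = 0.0338). NDUFA9 of complex I had 0.25, COX7C of complex IV had -0.13 and SDHC of complex II had -0.09.

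The machinery that transcribes, processes and degrades mitochondrial RNA is encoded in the nucleus, and 40 of its genes were tested. A single one was past 0.001, namely PDE12, which was lower in S6K1-/- hESCs, where 2.54% of all genes tested were lower. PDE12 (chr3:57556274-57566848, plus strand) encodes a mitochondrial phosphodiesterase that removes poly(A) tails from mitochondrial RNA. It had 470, 530 and 493 counts in WT and 222, 253 and 211 in S6K1-/- hESCs, so that all S6K1-/- libraries were far below all WT libraries. Its level fell by 1.06 in log2 units (SE 0.075, edgeR adjusted p = 1.00e-07, DESeq2 adjusted p = 4.29e-20), to 0.479 times the WT level with an interval from 0.429 to 0.535. Leaving out any single library gave log2 values from -1.11 to -1.03. No annotated gene overlaps it, and its neighbour ARF4 had 3252, 3711 and 3416 counts in WT and 3416, 3446 and 3228 in S6K1-/- hESCs.

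**Figure D5:**
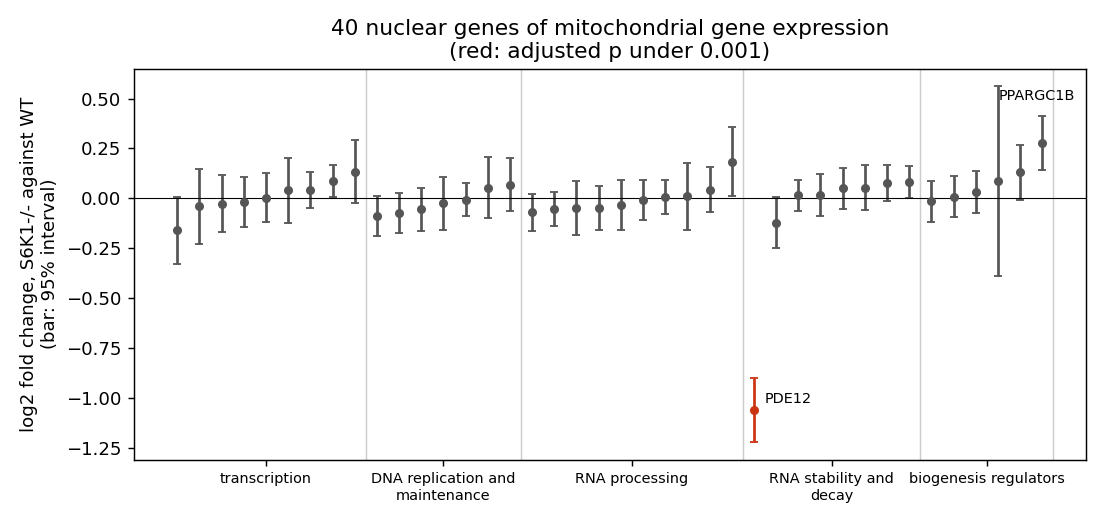
Log2 fold change of S6K1-/- against WT hESCs for 40 nuclear genes of mitochondrial gene expression, grouped by role, with bars for the 95% interval. PDE12 at -1.06 is the one gene past the threshold, and the next largest value is 0.28 for PPARGC1B.

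None of the other 39 genes of this machinery was past 0.001. Of the 9 transcription genes, which include the polymerase POLRMT and the packaging factor TFAM, the log2 fold change lay between -0.16 and 0.13. TFAM itself had 117.2, 117.4 and 121.3 CPM in WT and 125.4, 127.4 and 125.5 CPM in S6K1-/- hESCs, without overlap, and its log2 fold change was 0.09 (SE 0.038, edgeR adjusted p = 0.152). The 7 genes of DNA replication and maintenance, such as POLG and TWNK, lay between -0.09 and 0.07. The 10 RNA processing genes lay between -0.07 and 0.18, and the highest was FASTKD3. Among the 8 genes of RNA stability and decay, the 7 besides PDE12 included LRPPRC, which with SLIRP stabilises mitochondrial mRNAs, at 0.08 (SE 0.038, edgeR adjusted p = 0.186). The poly(A) polymerase MTPAP had a log2 fold change of 0.05 (adjusted p = 0.578 from edgeR).
Of the 6 regulators of mitochondrial biogenesis, PPARGC1B, a coactivator of nuclear genes for mitochondrial proteins, had 767, 651 and 684 counts in WT and 849, 847 and 748 in S6K1-/- hESCs. In CPM the groups did not overlap, and the log2 fold change was 0.28 (SE 0.064), with an adjusted p of 0.00867 from edgeR, not past 0.001. Over the 40 genes, 22 values were above 0 and 18 below, with a median of 0.01.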

How the data were processed

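RNA from undifferentiated cells was made into libraries with the TruSeq Stranded mRNA kit. Per the labels and methods, the authors trimmed paired reads of 150 bases with Trim Galore 0.6.5, aligned them to GRCh38 with Bowtie2 2.4.5 and counted them per gene with featureCounts. They deposited whole-number counts per symbol without normalization. The annotation release, the strand setting and the treatment of reads that match several genes or places are not given in the sources used here. A deposited table of the authors' own comparison (fold changes, p-values) was not used.

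Counts were compared with edgeR 4.0.16 in R 4.3.3 (filterByExpr, TMM, quasi-likelihood F test, genotype as the only factor), which tested 19521 genes, with Benjamini-Hochberg adjustment over all of them and the paper's threshold of 0.001. CPM used TMM effective library sizes. Standard errors come from the log2 fold change and the F statistic. DESeq2 1.42.0 was an alternative. The steps were tested on simulated data. The mitochondrial genes and the nuclear lists were chosen with earlier results of these data known. The text names the mRNA and rRNA genes, the tested tRNA genes, up to 5 members of each nuclear list by p and the most counted nuclear copies. POLRMT, POLG, TWNK, SLIRP, MTPAP and ARF4 were named after their values were seen. Positions and sequences are from GENCODE 44 and GRCh38. Adding the counts of nuclear copies on chromosome 1 with at least 95% identity was chosen after seeing the data. No libraries within a group were duplicates: their counts differed beyond sampling noise, with a chi-square of 2.23 to 4.51 per degree of freedom.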

Additional observations from a re-analysis of the deposited data

How the results depend on the processing

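None of the 21 mitochondrial genes was past 0.001 with DESeq2's size factors, total counts only, scaling without mitochondrial genes, a minimum of 10 counts in every library, or nuclear copies added. DESeq2's Wald test called 1 (MT-RNR2), the fit without a filter called 3 (MT-ND1, MT-ND2 and MT-ATP8), and a threshold of 0.05 gave 3. Leaving out a library gave 0 to 1, the 1 being MT-ND1 without S6K1-/- replicate 3. Over all genes, 591 were higher and 982 lower without a filter, and 1067 and 1622 at 0.05. Leaving out a library gave 170 to 231 higher and 323 to 446 lower. Without a filter and at 0.05 alike, 1 gene of the machinery and 1 nuclear-encoded respiratory chain gene were higher, and at 0.05 1 of the latter was lower. The cause was not tested.

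Several log2 fold changes turned sign. With total counts only MT-ND4L had -0.019 and MT-ND6 -0.0075. With scaling to the 13 mRNA genes MT-CO1 had -0.061, MT-CO2 -0.019, MT-ND4L -0.096, MT-ND4 -0.040, MT-ND5 -0.055, MT-ND6 -0.082 and MT-TE -0.070. Leaving out a library gave -0.46 to 0.19 for MT-TY, -0.079 to 0.051 for MT-TS1, -0.14 to 0.070 for MT-ND3, -0.055 to 0.11 for MT-ND4L, -0.0060 to 0.14 for MT-ND5, -0.059 to 0.098 for MT-ND6, -0.11 to 0.17 for MT-TE and -0.31 to 0.048 for MT-TT. The difference in the mitochondrial share was 0.295 to 0.892 percentage points, and the median log2 fold change of the 13 mRNA genes 0.027 to 0.145, in both cases without S6K1-/- replicates 2 and 3 respectively. With total counts only, MT-ND1 and MT-ND2 were not past 0.05 in edgeR (adjusted p = 0.0718 and 0.0711). Nor were they with at least 10 counts in every library (edgeR adjusted p = 0.0549 and 0.0523). MT-RNR2 stayed past 0.05 in both settings (edgeR adjusted p = 0.0313 and 0.0238).

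The sources used here do not say whether the replicate numbers pair the libraries, and correlations between the groups did not settle it. Those of same-numbered libraries were 0.0439, 0.0110 and 0.0428, and 4 of 6 libraries correlated best with their own number. With a replicate block, 241 genes were higher and 423 lower, 0 of them mitochondrial, and MT-ND4L had -0.0029. In that edgeR fit the adjusted p was 0.0144 for MT-ND1, 0.0245 for MT-ND2 and 0.0237 for MT-RNR2.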
